A study of Mus musculus with 12 samples.

Results

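Cluster 6 of the 12-week spleen library was a group of 503 CD8 T cells among the 6894 cells of that library and the 20510 cells of the series. Its members were taken by the authors' own deposited cluster number, and its expression was read from the deposited mean count column of that cluster beside the columns of the other 9 clusters of the same library. It held 7.30% of the library's cells, with an exact binomial 95% interval of 6.69 to 7.94% that covers counting error only.

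The series profiled PD-1+CD44+CD8+ T cells sorted from female NZB/W F1 mice, a cross that develops a spontaneous lupus-like kidney disease, by droplet single-cell RNA sequencing from the 5' end of transcripts. The groups were spleen at 12 weeks (12W), before overt disease, spleen at 28 weeks (28W) and kidney at 28 weeks, and the labels name no transgene or treatment. Each group has 4 samples in the labels, but the deposited tables pool them without a map from cells to samples, so each group counted as 1 library, no difference could be tested, and how many mice each library drew on is not given in the sources used here. The titles of the later spleen samples, which conflict with an age of 12 weeks in another of their labels, were used.

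Among the genes that mark this cluster, Il7r, Il6ra and Socs3 belong to cytokine signalling. Il7r encodes the alpha chain of the receptor for IL-7, the cytokine that keeps naive and memory T cells alive, and T cells lower this chain when they are activated. Il6ra encodes the ligand-binding chain of the IL-6 receptor, which signals through STAT3, and Socs3 encodes a STAT3-induced inhibitor that binds the shared IL-6 receptor chain gp130. Tgtp1 encodes a GTPase induced by interferons, and Sh3bp5 encodes a mitochondrial binding partner of the kinase JNK that also activates the GTPase Rab11. PD-1, the product of Pdcd1, is an inhibitory receptor that T cells raise after antigen receptor signalling.

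Levels are given as CPM, the count of a gene's unique molecular identifiers scaled to 1000000 over all genes, where a unique molecular identifier (UMI) marks 1 captured transcript. Intervals on levels are exact Poisson 95% intervals and those on ratios are exact conditional ones, and both cover counting error only. Log2 ratios set cluster 6 against the sum of the other 6391 cells of the library on a log2(CPM + 1) scale. Intervals on ratios were computed from the counts without the added 1 CPM, so at low counts they are not centred on the ratio printed. Because the cells were clustered on these same genes, every ratio against other clusters of the library is a description and not a test.

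The levels of the 5 marker genes separated cluster 6 from most of its library, although only Tgtp1 was at its highest there. Il7r (chromosome 15: 9505788 to 9530176, minus strand, GRCm38) stood at 477 CPM (446 to 510) in cluster 6, and at a lowest of 13.2, a median of 158 and a highest of 685 CPM in the other 9 clusters. Clusters 2 and 8, at 685 and 607 CPM, lay above it, and the next cluster below, cluster 5, was at 191 CPM. Against all other cells, at 198 CPM, the log2 ratio was 1.26 (1.17 to 1.37).

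Il6ra (chromosome 3: 89864059 to 89913196, minus strand) stood at 44.5 CPM (35.4 to 55.2), against 18.2 CPM in the other cells, a log2 ratio of 1.24. Cluster 8, at 56.2 CPM, and cluster 2, at 41.5 CPM, were its neighbours in the order, and their counting intervals overlapped that of cluster 6. Socs3 (chromosome 11: 117966079 to 117970047, minus strand) rested on 50 UMIs, or 26.8 CPM (19.9 to 35.3), against 9.70 CPM in the other cells, a log2 ratio of 1.38. Clusters 2 and 3, at 29.2 and 23.5 CPM, overlapped it within counting error, and the remaining 7 clusters lay between 1.40 and 8.91 CPM. Of these, the interval of cluster 8, on 2 UMIs, also overlapped.

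Sh3bp5 (chromosome 14: 31359880 to 31436078, minus strand) was at 69.2 CPM (57.7 to 82.2) in cluster 6 and at 29.6 CPM in the other cells, a log2 ratio of 1.20. It was higher only in cluster 8, at 77.2 CPM from 22 UMIs, an interval that overlapped, and no other cluster passed 41.1 CPM. Tgtp1 (chromosome 11: 48985327 to 48994172, minus strand) was at 94.9 CPM (81.4 to 110), above all 9 other clusters. Cluster 4 was the nearest at 67.8 CPM with an interval that did not overlap, but that of cluster 8, at 52.7 CPM from 15 UMIs, did overlap. Its log2 ratio over the other cells was 1.05 (0.84 to 1.30). Of 90-base windows along Tgtp1 transcripts, 72.0% were also found in its near copy Tgtp2, so reads could be shared between them, and Tgtp2 itself was at 5.36 CPM in cluster 6 and 3.16 CPM in the other cells.

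**Figure D1:**
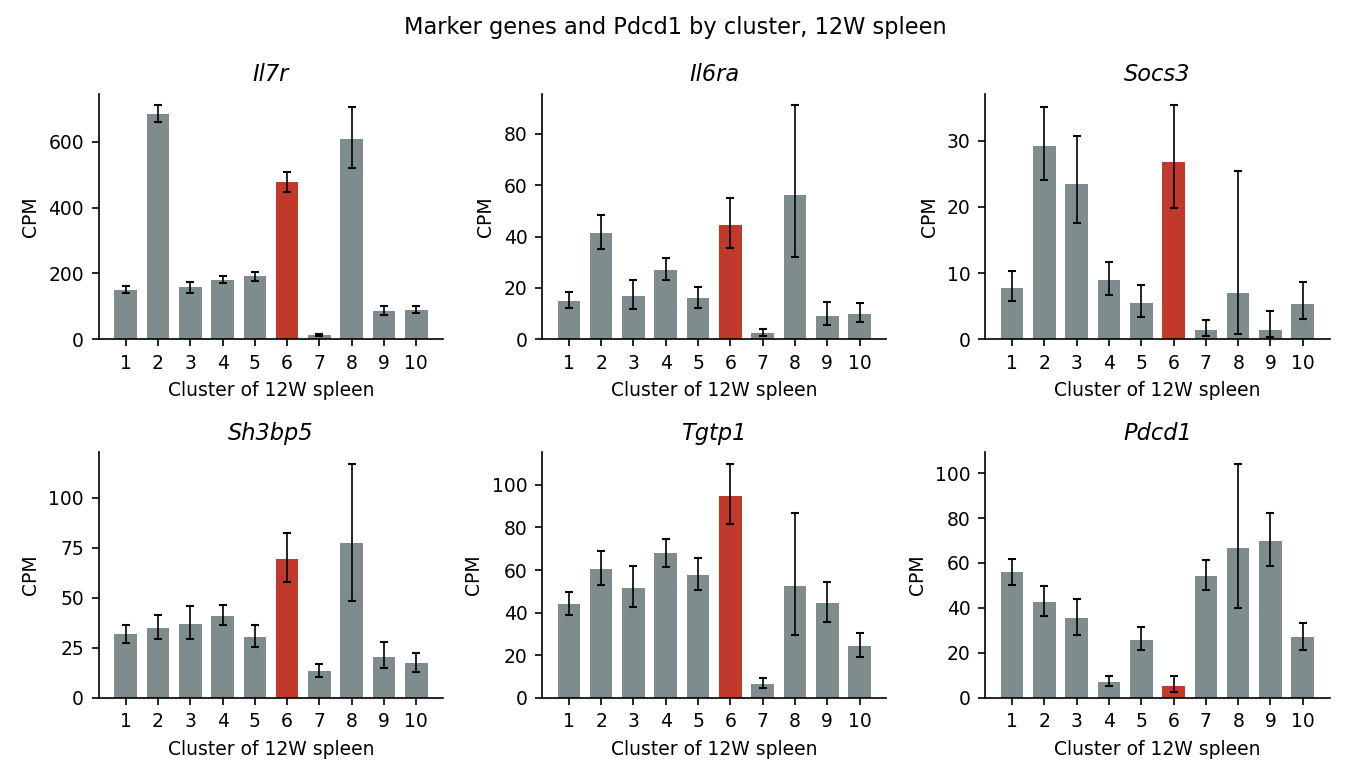
Each panel plots 1 gene in CPM (vertical axis) over the 10 clusters of the 12W spleen library (horizontal axis), with bars for the level, exact Poisson 95% intervals for counting error, and cluster 6 in red. Cluster 6 was highest for Tgtp1 at 94.9 CPM, among the 3 highest for the other 4 markers, and lowest for Pdcd1 at 5.36 CPM.

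The promoters of these genes are shown because STAT proteins, which carry IL-6 and IL-7 signals, and interferon-activated factors bind known letters. The 250 bases before each RefSeq start site (GRCm38.p6) were searched on both strands for TTCNNNGAA, the palindromic core of STAT sites, and for GAAANNGAA, the core of the interferon-stimulated response element. The matched stretches are printed on each gene's strand from 5′ to 3′, with the matching letters in capitals. They lie at chr15:9530000-9530028 for Il7r, chr11:117969502-117969530 for Socs3, chr11:48992310-48992339 for Tgtp1 and chr11:49064269-49064298 for Tgtp2, all on the minus strand, and at chr3:142620595-142620623 on the plus strand for Gbp2, where the capitals are the reverse complement of the motif.
Il7r: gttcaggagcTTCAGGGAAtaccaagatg
Socs3: gaaaccagccTTCTTAGAAgggagggggg
Tgtp1: gccatTTCCAGGAAtcGAAACTGAAaccta
Tgtp2: gccatTTCCAGGAAtcGAAACCGAAaccta
Gbp2: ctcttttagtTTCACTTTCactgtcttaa

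Il7r and Socs3 each held the STAT core once, and Tgtp1 and Tgtp2 held the STAT core and the interferon core side by side, 2 bases apart. No match to either motif was found in the windows of Sh3bp5, which has 2 RefSeq starts, or of Il6ra. Of all 32851 promoters in the table, 7.02% held TTCNNNGAA, 7.13% held GAAANNGAA and 0.752% held both, and the shares among the 5311 promoters of genes tested here were 5.91, 6.67 and 0.715%. The stretches of Il7r, Socs3 and Tgtp1 lie inside the gene spans given above. Those spans come from GENCODE and begin further upstream than the RefSeq start sites used for the windows. A match in these windows is a description of letters and not a measured binding site.

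Pdcd1 was lower in cluster 6 than in any other cluster, although the cells had been sorted on PD-1 protein. Only 10 UMIs of Pdcd1 were counted in its 503 cells, 5.36 CPM (2.57 to 9.86), against 38.3 CPM in the other cells, a log2 ratio of -2.63 (-3.90 to -1.95). Cluster 4 was next at 7.26 CPM, a difference within counting error, while the other 8 clusters lay between 25.9 and 69.7 CPM. RNA and surface protein were not measured in the same cells, and a gate does not show the level of the transcript.

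Of the other genes of the sort, those of CD8 were high and Cd44 was low. Cd8b1, a chain of the CD8 coreceptor, was highest of the 10 clusters at 1240 CPM (1190 to 1292), against 852 CPM in the other cells. Cd8a, the other chain, was at 699 CPM against 585 CPM and ranked behind clusters 5 and 8. Cd44, the adhesion receptor used in the sort, was lowest of the 10 clusters at 19.3 CPM (13.5 to 26.7), against 32.1 CPM, but rested on 36 UMIs, and its interval overlapped the levels of 21.9 to 24.9 CPM in clusters 4, 7, 9 and 10. Cd4 had no UMI in cluster 6, which allows up to 1.61 CPM.

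RNA content differed between the clusters and entered every comparison. Cluster 6 held 1865389 UMIs, 5.37% of those in the library, at a mean of 3709 UMIs per cell against 5144 in the other cells, where cluster means ran from 928 (cluster 8) to 14345 (cluster 10). Genes of the ribosomal proteins, the protein components of the translation machinery, took 40.2% of its UMIs, against 32.0% in the other cells. This was the highest share of the 10 clusters, with cluster 4 close at 38.6% and only 4.81% in cluster 8. Mitochondrial transcripts took 1.09% against 1.19%, so cluster 6 did not have the raised mitochondrial share of cluster 8, at 8.98%. Of its cell barcodes, 5 also occurred in the 28W spleen library and 1 in the kidney library.

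**Figure D2:**
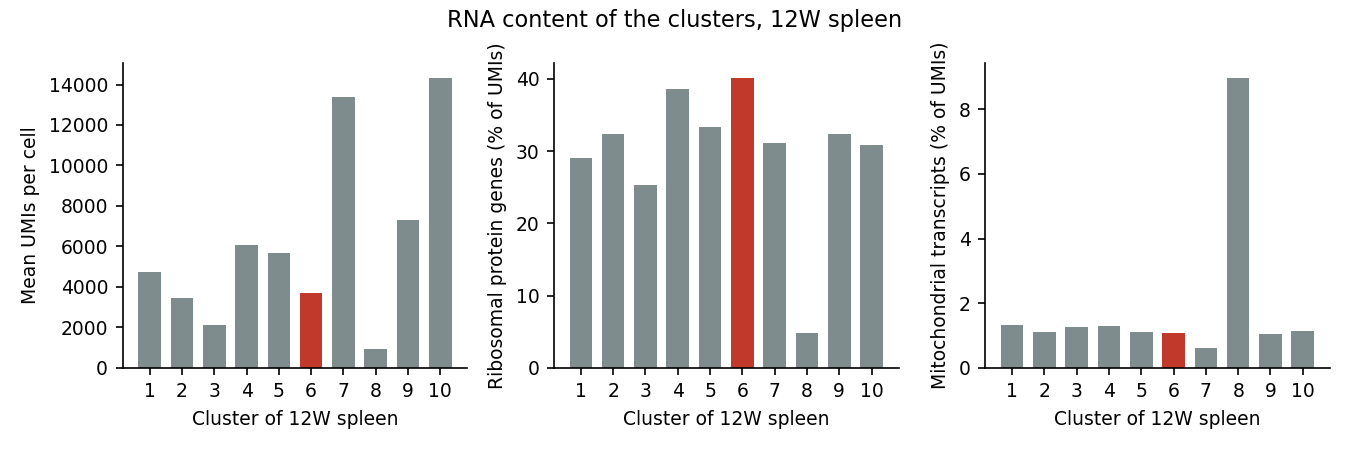
The 3 panels plot mean UMIs per cell, the percentage of UMIs from ribosomal protein genes and the percentage from mitochondrial transcripts (vertical axes) for the 10 clusters of 12W spleen, with cluster 6 in red. Cluster 6 had 3709 UMIs per cell and the highest ribosomal protein share, 40.2%, with cluster 4 next at 38.6%.

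More genes were lower than higher in cluster 6. Among the 5307 genes with at least 20 CPM over the library, 54 (1.02%) lay at a log2 ratio of 0.5 or above and 1240 (23.4%) at -0.5 or below. The median gene itself lay at -0.27, so ratios were also set against that gene, and then 275 genes (5.18%) were higher by 0.5 and 424 (7.99%) were lower, which moved the share of higher genes among those past the threshold from 4.17 to 39.3%. Cluster 6 was the highest of the 10 clusters for 75 genes (1.41%) and the lowest for 684 (12.9%). The genes nearest to the threshold of 0.5 lay at 0.5001 inside it and 0.4923 outside it. Il7r, Sh3bp5 and Tgtp1 were among the 54, and Il6ra and Socs3 fell below the 20 CPM minimum over the library and entered no count.

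**Figure D3:**
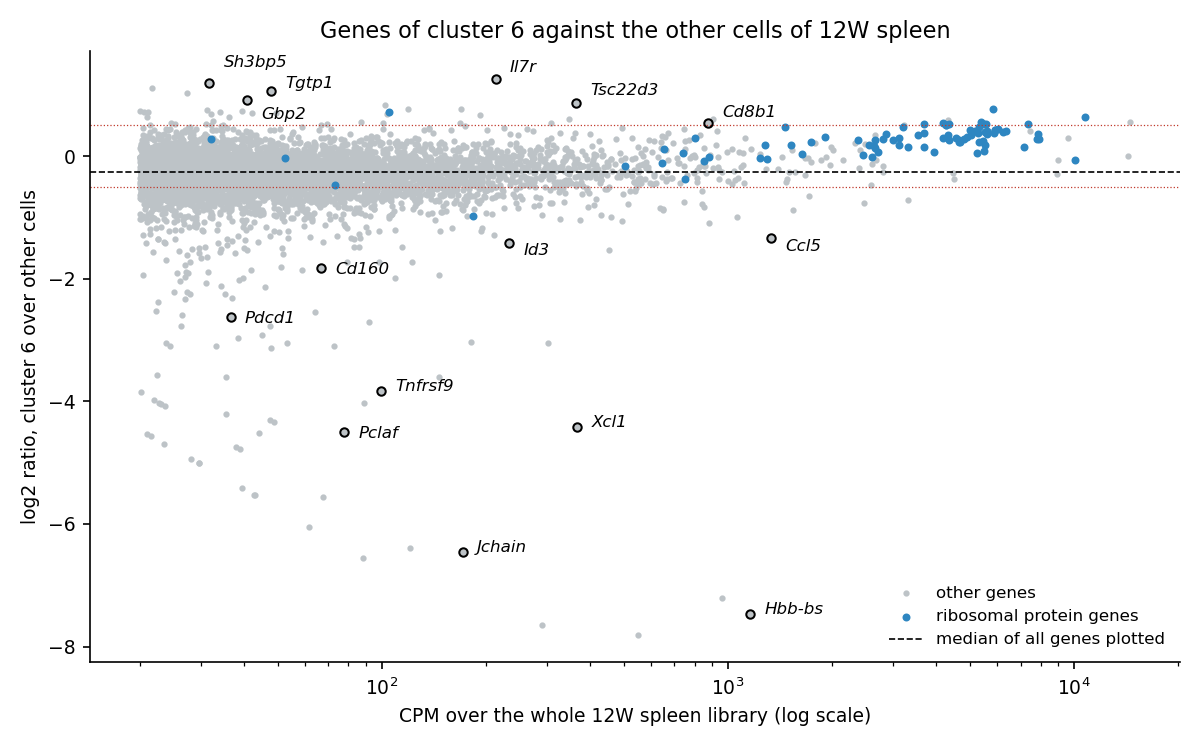
Each point is 1 of the 5307 genes, placed by its CPM over the whole 12W spleen library (horizontal log axis) and by its log2 ratio of cluster 6 over the other cells (vertical axis), with ribosomal protein genes in blue, the threshold of 0.5 either way dotted and the median gene, at -0.27, dashed. Il7r, Sh3bp5 and Tgtp1 lie above 1, the ribosomal protein genes sit mostly above the median gene, and far more genes lie low than high.

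Among genes with at least 50 CPM on either side, 12 others joined Il7r, Sh3bp5 and Tgtp1 in the 15 highest ratios. Gbp2, a guanylate-binding GTPase induced by interferons, was at 74.0 CPM (62.2 to 87.4) against 38.9 CPM, with a log2 ratio of 0.91, and was highest of the 10 clusters, although cluster 2, at 60.6 CPM, lay within counting error. Tsc22d3, which encodes the glucocorticoid-induced leucine zipper protein GILZ, was at 637 CPM (602 to 675) against 349 CPM and was also highest, the next cluster being cluster 1 at 504 CPM. Ifngr1, the ligand-binding chain of the receptor for interferon gamma, was at 278 CPM against 163 CPM, a log2 ratio of 0.77, with cluster 8 above it at 383 CPM and cluster 2 level with it at 277 CPM.

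The remaining genes among the 15 highest spanned log2 ratios of 0.70 to 1.03. Fam241a was at 53.6 CPM against 25.8 CPM, a log2 ratio of 1.03, and Tdrp at 175 CPM against 98.1 CPM, 0.83. Arl4c, a small GTPase of the ADP-ribosylation factor family, Fam46a, a noncanonical poly(A) polymerase, Aaed1, Vkorc1, a subunit of vitamin K epoxide reductase, and Sit1, an adaptor that restrains T cell receptor signals, lay at log2 ratios of 0.70 to 0.76. The ribosomal protein gene Rps27, at 9545 CPM against 5629 CPM, and its near copy Rps27rt, of whose 90-base windows 89.8% also occur in Rps27, lay at 0.76 and 0.72.

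Ribosomal protein genes were raised broadly. Of 84 tested, 12 lay at 0.5 or above and 1 at -0.5 or below, against 1.02 and 23.4% of all genes. Their median log2 ratio was 0.27. Cluster 6 was the highest of the 10 clusters for 40 of them, against 1.41% of all genes. They made up 12 of the 54 higher genes, and set against the median gene 54 of the 84 were higher, against 5.18% of all genes. Without clusters 3, 8 and 10, which stood apart by markers of other cells, depth or cell cycle genes, 5 were higher and 2 lower and the median was 0.24. Over all 5307 genes, 48 were then higher and 1198 lower.

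Interferon-induced GTPases, which act in defence against intracellular pathogens, had a median log2 ratio of 0.33 over 10 genes, against -0.27 over all genes tested. Tgtp1, itself a given marker of the cluster, and Gbp2 passed the threshold, and none was lower. Over all genes, 1.02% were higher and 23.4% lower. Once set against the median gene, 6 of the list were higher, against 5.18% of all genes. Igtp (80.4 against 57.6 CPM), Ifi47 (356 against 269 CPM) and Gbp4 (86.8 against 64.7 CPM) lay below the threshold and were each second of the 10 clusters. Summed over the list, cluster 6 stood at 932 CPM, below clusters 2 (999 CPM) and 8 (1018 CPM).

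The wider list of type I interferon-stimulated genes had few members past the threshold. Of 19 tested genes, Isg15, a ubiquitin-like protein, was higher at 92.7 CPM against 65.0 CPM, and the median was 0.03. Ifi209 and Ifi214, members of the family of DNA sensors, were lower. Over all genes, 1.02% were higher and 23.4% lower. Set against the median gene 7 of the 19 were higher, against 5.18% of all genes, and none was lower. Without clusters 3, 8 and 10, Isg15 no longer passed the threshold and 0 of 19 were higher. The summed level of 2326 CPM lay below those of clusters 2 and 4, at 3417 and 3251 CPM.

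Beyond the receptor chain Il6ra and Socs3, genes of IL-6 and STAT3 signalling did not stand out. Of 10 tested, none was higher and Il10ra, a receptor chain for IL-10, was lower at 7.51 CPM against 35.9 CPM, with a median of -0.17. Among 8 tested genes of the common gamma chain receptors and STAT5 signalling, Il7r was higher and 1 gene was lower, and the median was -0.02. Over all genes, beside both lists, 1.02% were higher and 23.4% lower. Il2rb, the beta chain shared by the receptors for IL-2 and IL-15, stood at 146 against 183 CPM, and Il2rg, the common gamma chain, at 697 against 635 CPM. Socs1, the one gene of the SOCS family that passed the minimum, was at 39.1 against 28.6 CPM, a log2 ratio of 0.44.

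Inhibitory receptors and exhaustion factors were low as a group. All 6 tested genes lay at -0.5 or below, against 23.4% of all genes, with a median of -1.63. Set against the median gene, 5 of them did so, against 7.99% of all genes. Cluster 6 was the lowest of the 10 clusters for 4 of them, against 12.9% of all genes. Beside Pdcd1, these were Cd200, an immune-regulatory surface protein, at 6.97 CPM against 36.9 CPM, Cd160 at 18.8 CPM against 69.3 CPM and Lag3, an inhibitory receptor for MHC class II, at 12.3 CPM against 34.7 CPM. In Cd160, cluster 4 was close at 22.6 CPM. Tox, a transcription factor of exhausted T cells, was at 45.6 CPM against 85.7 CPM, and Ctla4, which competes with CD28 for its ligands, at 19.8 CPM against 33.3 CPM. Summed over the list, cluster 6 stood at 126 CPM, below every other cluster, of which cluster 4 was the nearest at 195 CPM.

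Of 13 tested genes induced by antigen receptor signalling, 8 were lower, against 23.4% of all genes, and none was higher, and the median was -0.64. Cluster 6 was the lowest of the 10 clusters for 4 of them, against 12.9% of all genes. Tnfrsf9, which encodes the costimulatory receptor 4-1BB, was at 6.43 CPM against 105 CPM, a level that came mostly from cluster 7 at 523 CPM, and Nr4a1, an orphan nuclear receptor induced within hours of receptor engagement, at 25.7 CPM against 69.7 CPM, with clusters 4 (5.12 CPM) and 2 (12.4 CPM) below it. Irf8 was at 6.97 CPM against 32.5 CPM, and Cd5, a surface protein that scales with the strength of self recognition, was lowest of the 10 clusters at 140 CPM against 204 CPM. Clusters 3, 10 and 7 were close to it in Cd5, at 149 to 155 CPM. Set against the median gene, 4 of the 13 were lower, against 7.99% of all genes. Summed over the list, cluster 6 stood at 881 CPM, above clusters 4 (860 CPM) and 10 (783 CPM) and below the other 7.

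Genes of naive and memory T cells were mixed. Of 17 tested, 2 were higher and 2 lower, where 1.02% of all genes were higher and 23.4% lower, and the median was -0.04. Set against the median gene, 5 were higher and 2 lower, against 5.18 and 7.99% of all genes. Ccr7, the chemokine receptor for lymph node entry, at 437 CPM against 302 CPM, and Igfbp4, at 66.5 CPM against 40.7 CPM, were higher. Clusters 4 and 8 exceeded cluster 6 in Ccr7, at 495 and 930 CPM, and clusters 5 and 10 in Igfbp4, at 87.0 and 132 CPM. Id3, an inhibitor of E proteins, was lowest of the 10 clusters at 90.1 CPM against 242 CPM, a log2 ratio of -1.41. Myb, a transcription factor of stem-like CD8 T cells, was lowest at 13.9 CPM against 96.4 CPM, a log2 ratio of -2.70. Myb rested on 26 UMIs in cluster 6, and cluster 2 was close at 18.1 CPM. Tcf7 (168 against 219 CPM), Lef1 (434 against 352 CPM) and Klf2 (993 against 732 CPM), which act in quiescence and homing, lay between the thresholds.

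Cytotoxic and effector genes split. Of 8 tested, 3 were lower, none was higher and the median was -0.22, where 23.4% of all genes were lower. Set against the median gene 3 were lower and 2 higher, against 7.99 and 5.18% of all genes. Ccl4, a chemokine of activated T cells, had a log2 ratio of -4.03, Gzmk was at 4.82 CPM against 26.2 CPM and Ccl5 at 541 CPM against 1371 CPM. The level of Ccl5 in the other cells rested on cluster 2, at 8055 CPM, and cluster 6 ranked below clusters 1, 2 and 3. The levels of Gzmk and Ccl4 in the other cells came largely from cluster 2 (159 CPM) and cluster 7 (490 CPM), and clusters 4 and 5 stood at 4.62 and 4.93 CPM of Gzmk and 5.45 and 10.3 CPM of Ccl4, beside 4.82 CPM of each in cluster 6. Gzma (63.3 against 50.7 CPM) and Prf1 (51.5 against 40.9 CPM), a granzyme and the pore-forming perforin, lay between the thresholds.

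On the list of virtual memory and innate-like CD8 T cells, 6 of 11 tested genes were lower, none was higher and the median was -0.65, where 23.4% of all genes were lower. Set against the median gene, 2 were lower and 2 were higher, against 7.99 and 5.18% of all genes. Eomes, a T-box factor of memory and innate-like CD8 T cells, was lowest of the 10 clusters at 24.1 CPM against 82.3 CPM, with cluster 10 close at 26.9 CPM. Xcl1, a chemokine that draws cross-presenting dendritic cells, was also lowest, at 17.2 CPM against 386 CPM, most of that from cluster 7 at 2088 CPM.

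**Figure D4:**
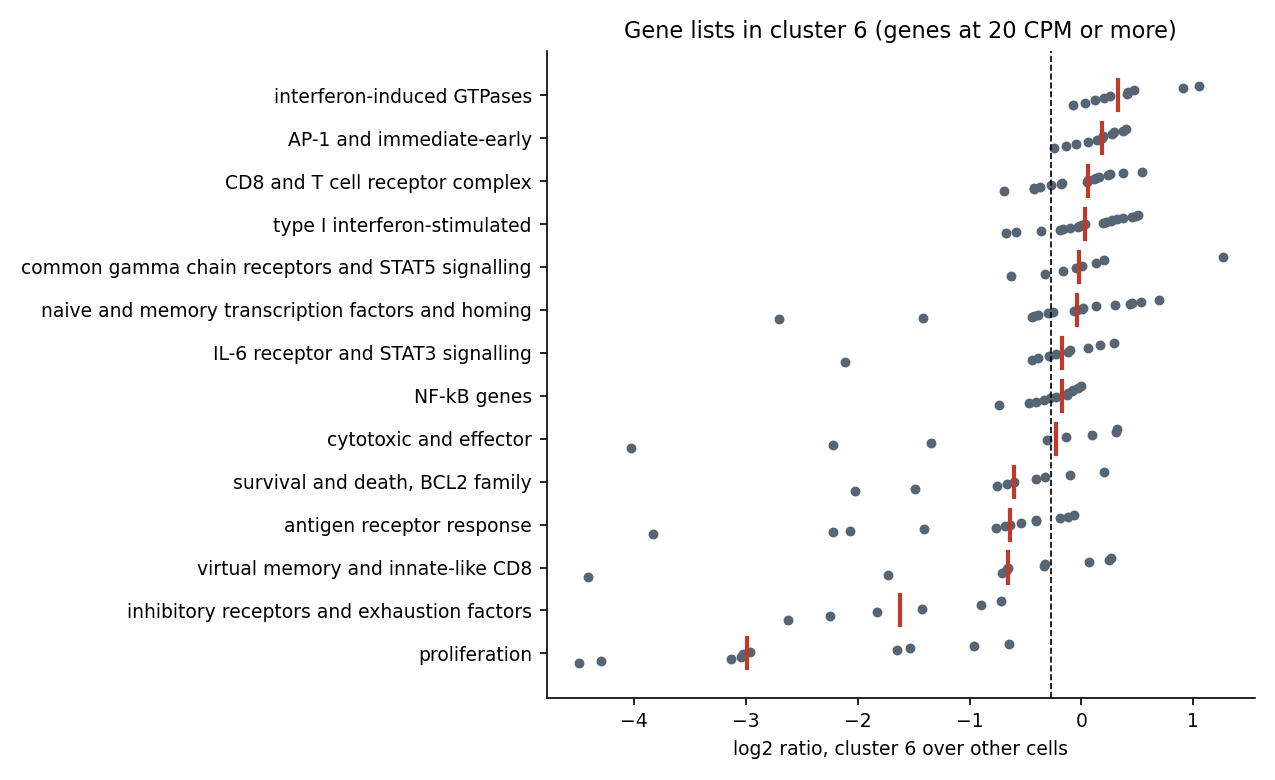
Each point is 1 tested gene placed by its log2 ratio of cluster 6 over the other cells of 12W spleen (horizontal axis), grouped by list (rows), with the list median as a red bar and the median of all genes tested, -0.27, as a dashed line. Of the lists plotted, the median was highest for the interferon-induced GTPases, 0.33, and lowest for proliferation genes, -2.99, with the inhibitory receptors and exhaustion factors at -1.63.

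Among survival genes of the BCL2 family, 5 of 9 were lower, against 23.4% of all genes, with a median of -0.60. Set against the median gene 2 of 9 were lower, against 7.99% of all genes. Bcl2, which IL-7 signalling is known to sustain, stood at 106 CPM against 91.7 CPM, while Bcl2a1b and Bcl2a1d, near copies that share 36.1% of the windows of the first, were at their lowest of the 10 clusters at 31.1 against 89.0 CPM and 9.11 against 40.3 CPM. Genes of NF-kB (1 of 12 lower, median -0.18) and of heat shock and dissociation (3 of 9 lower, median -0.46) had no higher member, where 23.4% of all genes were lower and 1.02% higher. The AP-1 and immediate-early list had no gene past the threshold among 11 and a median of 0.19, and 12 mitochondrial transcripts had none and a median of -0.14.

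Outside receptor and antibody segments, the lowest ratios belonged to genes of other clusters. Proliferation genes were lower in 10 of 10, against 23.4% of all genes, with a median of -2.99. Without clusters 3, 8 and 10 they were lower in 8 of 10, with a median of -0.66. Pclaf, a partner of the replication clamp, was at 2.68 CPM, against 780 CPM in cluster 10. Ube2c, Birc5, Rrm2, Top2a and Hist1h2ap, which act in mitosis, nucleotide supply and chromatin, lay between -3.04 and -4.34. Hbb-bt (-7.64), Hbb-bs (-7.47) and Hba-a1 (-7.20), haemoglobin genes, Jchain (-6.46), the joining chain of secreted antibody, and Cd74 (-3.60), the MHC class II chaperone, completed the 15 lowest with Sox4 (-3.10) and those named above. The haemoglobin level lay in cluster 3, where Hbb-bs reached 17754 CPM against 5.90 CPM in cluster 6, and without clusters 3, 8 and 10 the log2 ratio of Hbb-bs was 0.040.

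Cluster 6 carried the genes of CD8 T cells, and many markers of other cell types had no UMI. Of 16 genes of the CD8 and T cell receptor complex, Cd8b1 was higher, the costimulatory receptor Cd28 was lower at 131 CPM against 212 CPM, and the median was 0.06. Over all genes, 1.02% were higher and 23.4% lower. Of 12 B cell markers, 6 had no UMI, Cd79a, Ms4a1 and Igkc among them. Of the 7 tested 5 were lower, against 23.4% of all genes. Igkc was at least 28.2-fold lower and Cd79a at least 8.0-fold lower than in the other cells, both against a floor of 3 UMIs in cluster 6. Of the UMIs of the other cells, 1401 of 1491 for Igkc and 360 of 423 for Cd79a lay in cluster 3, and without clusters 3, 8 and 10 the median log2 ratio of the list moved from -3.60 to -0.80 with 4 of 7 lower. The summed B cell level, 220 CPM against 111 to 5212 CPM in the other clusters, came mostly from Ighm at 168 CPM.

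Of 12 myeloid markers, 6 had no UMI, Csf1r and Cd68 among them, and 2 of 4 tested were lower, against 23.4% of all genes. Others had UMIs: C1qa was at 8.04 CPM on 15 UMIs, below cluster 3 at 65.7 CPM and above the other clusters, at 0 to 4.90 CPM. Lst1 was at 6.97 CPM on 13 UMIs, below clusters 3 and 8. The summed level of the list was 309 CPM, with the other clusters at 152 to 2149 CPM. The 3 tested erythroid genes were lower and summed, over the list, to 12.9 CPM. Of 9 markers of NK and innate lymphoid cells, 6 had no UMI, Ncr1 among them, and 1 of 2 tested was lower. Trdc, the constant region of the gamma delta T cell receptor and the one testable gene of its list, was at 13.4 CPM against 25.3 CPM, a log2 ratio of -0.87 that was -0.49, short of the threshold, without clusters 3, 8 and 10. Cluster 3 alone stood at 126 CPM of Trdc, and clusters 4, 5, 7, 9 and 10 lay below cluster 6, at 2.61 to 12.6 CPM. Il18r1, on the same list but below the minimum over the library, was at 30.02 CPM on 56 UMIs in cluster 6. Only cluster 2 was higher in Il18r1, at 70.7 CPM, and cluster 8 was next below, at 21.1 CPM on 6 UMIs. The whole list summed to 61.6 CPM in cluster 6 against 91.7 CPM in the other cells. Without clusters 3, 8 and 10, none of the 4 myeloid and none of the 3 erythroid genes was lower. The part of other cells in the results was not tested.

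Foxp3, the transcription factor that defines regulatory T cells, had 28 of its 131 library UMIs, 21.4%, in cluster 6. Its level there was 15.01 CPM (9.97 to 21.7), the highest of the 10 clusters, against 3.13 CPM in the other cells. Cluster 8 was next at 10.5 CPM from its low depth, and the remaining 8 clusters lay between 0.664 and 5.28 CPM. Il2ra, the high-affinity IL-2 receptor chain, rested on 16 UMIs, 8.58 CPM against 4.26 CPM, below clusters 7 (15.2 CPM) and 8 (24.6 CPM), whereas Ikzf2, the factor Helios of many regulatory T cells, was lowest of the 10 clusters at 27.9 CPM against 113 CPM. Of the 2 genes of the CD4 and regulatory list that passed the minimum, Ikzf2 was lower and none was higher, where 23.4% of all genes were lower. Foxp3 was too low in the library to enter any count, and whether its UMIs came from few or many of the 503 cells cannot be told from means per cluster.

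Cluster 5 was the cluster of the same library with the most similar profile, with a Spearman correlation of 0.953 over 5261 genes, followed by cluster 2 at 0.941 and cluster 4 at 0.931. The clusters share a library and the genes are not independent, so these values only rank the clusters. Cluster 5 held 718 cells and cluster 2 held 1118.

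Against cluster 5, cluster 6 had more Il7r, Il6ra and Socs3 and less of the transcription factor genes Sox4, Myb, Ikzf2 and Id3. Genes with at least 50 CPM on either side were ranked. The 5 highest of these were Gzma (63.3 against 22.9 CPM, log2 ratio 1.43), Il7r (1.32), Pim1 (59.0 against 23.4 CPM, 1.30), a kinase induced through STAT factors, Sh3bp5 (1.15) and Ccl5 (541 against 258 CPM, 1.07). Below that minimum, Socs3 was at 26.8 against 5.42 CPM, a log2 ratio of 2.11 (1.56 to 3.10 by counting error), and Il6ra at 44.5 against 16.0 CPM, 1.42. Foxp3, also below it, lay at 2.84 on 28 against 5 UMIs. The 5 lowest of the ranked genes were Sox4 (8.04 against 53.2 CPM, -2.58), Myb (-1.89), Ikzf2 (-1.83), Id3 (-1.66) and Xcl1 (-1.62). Pdcd1, below the minimum, lay at -2.08. Lef1 was level, at 434 and 430 CPM, and the median of all genes tested was -0.21.

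Cluster 2 was level with cluster 6 in a few of the genes described above and far from it in others. Il6ra (log2 ratio 0.10), Socs3 (-0.12) and Ifngr1 (0.01) differed by less than counting error, and Il7r was lower in cluster 6 by a log2 ratio of -0.52. Genes were again ranked with at least 50 CPM on either side. The 5 highest of these in cluster 6 were Igfbp4 (66.5 against 2.84 CPM, 4.14), Ccr9, a gut and thymus homing receptor (68.1 against 9.80 CPM, 2.68), Rgcc (2.52), Fam241a (2.06) and Satb1, a chromatin organiser of naive T cells (183 against 54.7 CPM, 1.72). The 5 lowest were S100a4 (3.75 against 161 CPM, -5.09), Gzmk (-4.78), the NK cell receptor genes Klrk1 (-4.66) and Klrc1 (-4.64), each on 3 UMIs in cluster 6, and S100a6 (37.5 against 730 CPM, -4.25).

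Homing and memory genes differed in the same pair. Lef1 (434 against 132 CPM, 1.71) and Ccr7 (437 against 179 CPM, 1.28) were higher in cluster 6. Cxcr3, a chemokine receptor of effector and memory cells, was at 48.2 against 302 CPM and Cd44 at 19.3 against 65.5 CPM. Tcf7 was level, at 168 and 175 CPM, and the median of all genes tested was -0.18.

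Cluster 4, the only other cluster with Pdcd1 below 10 CPM, was set beside cluster 6 after the values had been seen. The difference in Pdcd1 was within counting error, with a log2 ratio of -0.38 (-1.59 to 0.57). Cluster 6 had more Ccl5 (541 against 119 CPM, 2.18), Srm, the spermidine synthase (70.2 against 18.8 CPM, 1.85), Hsph1, a heat shock protein (1.52), Gart, an enzyme of purine synthesis (1.41), and Il7r (1.40), and Socs3 was at 26.8 against 8.91 CPM. It had less Myb (-2.70), Ctla2a (30.02 against 152 CPM, -2.31), H2-Oa (-2.17), Serpinb6b (-1.91) and Xcl1 (-1.63). Dapl1 (305 against 561 CPM) and Tcf7 (168 against 275 CPM) were also lower, and the median of all genes tested was -0.04.

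No T cell receptor V segment dominated cluster 6. Trbv13-2, the most used, took 19.2% (17.8 to 20.6) of the 3236 beta V segment UMIs, against 21.2% in the other cells, and Trbv13-1 took 18.3% against 21.1%. Trbv1 took 14.8% against 12.3%. Among 1763 alpha V segment UMIs, Trav3-3 took 12.9% (11.3 to 14.5) against 10.1%, Trav13-1 6.47% against 5.69% and Trav5-4 4.82% (3.87 to 5.93) against 3.27%. For Trbv13-2, Trbv13-1, Trbv1 and Trav3-3 the share lay within the range of the other 9 clusters, while those of Trav13-1 and Trav5-4 lay above ranges that ended at 6.29 and 4.29%, values inside their counting intervals.

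In the 28W libraries, which were normalised and clustered separately, similarity was measured on each cluster's ratios over the other cells of its own library. The most similar cluster of 28W spleen was cluster 1, with a Spearman correlation of 0.573 over 4921 genes, and the next was cluster 4 at 0.477. That cluster held 638 CPM of Il7r, 43.9 CPM of Il6ra, 94.6 CPM of Socs3, 99.2 CPM of Tgtp1 and 39.7 CPM of Sh3bp5, and its ribosomal protein share was 40.9%. Its Pdcd1 was at 23.0 CPM (18.7 to 27.9) and its Foxp3 at 0.451 CPM on 2 UMIs, beside 5.36 and 15.01 CPM in cluster 6. Foxp3 was highest in cluster 11 of 28W spleen, at 32.5 CPM on 9 UMIs, and in cluster 8 of 28W kidney, at 11.8 CPM on 33 UMIs. In 28W kidney, cluster 5 was most similar, at 0.401 over 4817 genes, with Il7r at 624 CPM, Il6ra at 29.6 CPM, Socs3 at 69.0 CPM and Pdcd1 at 69.4 CPM.

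Pdcd1 was lower in cluster 6 than in any cluster of those libraries, whereas its Socs3 lay within their range. Pdcd1 ran from 10.1 to 75.5 CPM in the 11 clusters of 28W spleen and from 24.6 to 229 CPM in the 12 clusters of 28W kidney, every one above cluster 6. The lowest of them, cluster 10 of 28W spleen, had 7 UMIs, and its counting interval overlapped that of cluster 6. Socs3 exceeded its 26.8 CPM in 10 of 11 clusters of 28W spleen and in 7 of 12 of 28W kidney. Il7r exceeded its 477 CPM in 3 of 11 and 1 of 12, Il6ra its 44.5 CPM in 4 of 11 and 1 of 12, and Sh3bp5 its 69.2 CPM in 1 of 11 and 0 of 12. Tgtp1 exceeded its 94.9 CPM in 4 of 11 and 4 of 12, and Gbp2 its 74.0 CPM in 2 of 11 and 7 of 12. Tsc22d3 reached 505 CPM at most in 28W spleen and 400 CPM in 28W kidney, below the 637 CPM of cluster 6. Age, tissue and library cannot be told apart in these comparisons.

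**Figure D5:**
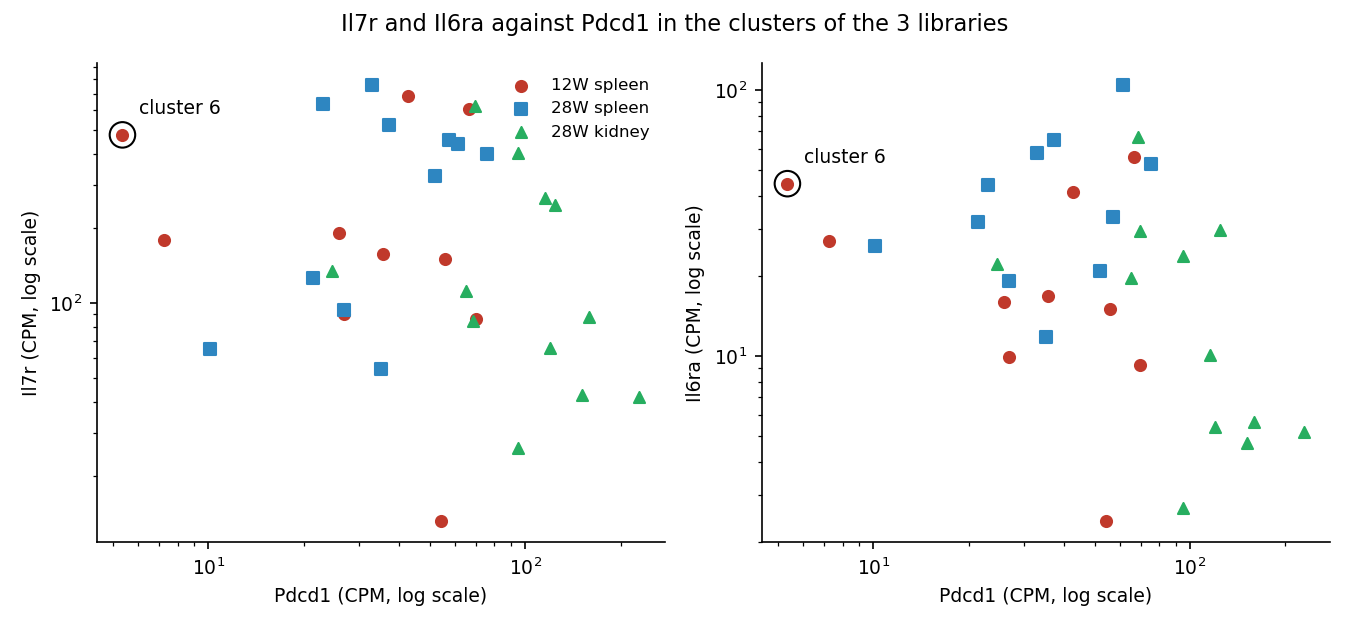
Each point is 1 cluster of the 3 libraries, placed by Pdcd1 in CPM (horizontal log axis) and by Il7r (left) or Il6ra (right) in CPM (vertical log axis), with the library given by colour and shape and cluster 6 circled. Cluster 6 lies furthest left, at 5.36 CPM of Pdcd1, and in the upper part of both panels, at 477 CPM of Il7r and 44.5 CPM of Il6ra.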

How the data were processed

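PD-1+CD44+CD8+ T cells were sorted, barcoded with a 10x Genomics 5' kit and sequenced, and the submitters' processing notes name Cell Ranger 2.1.1, R 3.6.1 and GRCm38. The annotation release, cell filters, clustering settings and doublet treatment are not given in the sources used here. With no matrix of single cells, no doublet caller was run. The authors deposited, for each library, the cluster number of each barcode and the mean UMI count of each gene per cluster, which they had scaled so that every column sums to the library's median UMIs per cell (3853 for 12W spleen). Columns of the authors' fold changes and adjusted p-values between clusters were not used.

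Each column consisted of whole multiples of 1 step, and division by it gave whole UMIs for 100% of values within a tolerance of 0.001. These were summed over the other clusters, turned into CPM and compared with a pseudocount of 1 CPM among genes with at least 20 CPM over the library. Depth was 1865389 UMIs in cluster 6 and 34742303 in the library. A floor of 3 UMIs is 1.61 CPM in cluster 6. No test was run, since each group is 1 library.

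Named genes were the 15 highest and 15 lowest log2 ratios with at least 50 CPM on either side, and the 5 highest and 5 lowest against each nearest cluster by the same minimum. The 3 most used alpha and beta V segments, the sort markers and examples from gene lists were added. Members, lists and comparisons were chosen with earlier results of these data known. Alternatives changed the pseudocount, scaling, minimum, threshold, averaging and the clusters compared. Coordinates come from GENCODE M21, promoters from RefSeq (GRCm38.p6). Python 3.11.15, numpy 2.4.6, pandas 2.3.3, scipy 1.17.1 and matplotlib 3.10.9 were used, and the ratio calculation was tested on simulated data.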

Additional observations from a re-analysis of the deposited data

How the results depend on the processing

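The 54 higher and 1240 lower genes depended on scale and threshold. Scaling by the median gene gave 275 and 424, a total without T cell receptor, ribosomal protein and mitochondrial genes 167 and 614, a minimum of 50 CPM 31 and 538, a minimum of 5 CPM 149 and 2349, and a log2 ratio of 1 gave 5 and 205. A pseudocount of 10 CPM left 788 lower genes. The median log2 ratio of the 5 markers, 1.24, was 0.95 with that pseudocount and 0.93 with the other clusters averaged by cell number from the deposited mean counts. Without clusters 3, 8 and 10 the direction turned for Hbb-bs (0.040) and Hba-a1 (0.12) and for the medians of the erythroid (0.040) and myeloid (0.018) lists. Cluster 3 held most of the haemoglobin UMIs. No other of the 36 named genes changed sign under any alternative. Of 24 list medians, 6 changed sign with median scaling, 5 with the reduced total, 3 with averaging by cell number (AP-1 to -0.08, type I interferon to -0.14, the CD8 complex to -0.05), 2 without clusters 3, 8 and 10 and 1 with the minimum of 5 CPM (SOCS family to -0.22). The nearest clusters were the same with Pearson's correlation. No paired analysis was possible because the tables pool the 4 samples of a group and no test was run, and for the same reason no sample could be left out. Low counts limit Pdcd1, with 10 UMIs in cluster 6, and Foxp3, with 28.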
